A study of Mus musculus with 8 samples.

Results

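The genes described here build the early secretory pathway of the cell: the signal recognition particle and its receptor, the Sec61 channel with Sec62 and Sec63, the Ssr subunits of the translocon-associated complex, signal peptidase, the COPII coat, the Sec22 group, the p24 cargo receptors (Tmed genes) and the COPI coat. They were chosen by gene symbol, as every probe set with 1 annotated symbol beginning with Sec11, Sec13, Sec22, Sec23, Sec24, Sec31, Sec61, Sec62 or Sec63, or naming an Ssr, Srp, Srpr, Spcs, Tmed or Cop subunit. That gave 108 of 45037 probe sets and 51 of 18194 genes. Of these, 81 probe sets and 48 genes reached a linear value of 50 on 4 or more of the 8 arrays and were tested. Tmed2, Tmed6 and Tmed11 did not, since each lay under 50 on all 8 arrays in the probe sets that carry its symbol alone. A further 13 probe sets annotated with several symbols, at least 1 of them matching, were left out, and 11 of those reached the minimum.

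In secretory cells a ribosome that exposes a signal sequence is held by the signal recognition particle and brought to its receptor on the endoplasmic reticulum. The nascent chain then enters the Sec61 channel, signal peptidase removes the signal sequence, and glycans are added while the chain is still growing. COPII vesicles carry finished cargo towards the Golgi apparatus, p24 proteins help to sort it, and COPI vesicles return escaped residents and receptors. Neurons that release neuropeptides, such as hypocretin (orexin) neurons, pass their precursor proteins through these steps before they are packed into dense-core granules.

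RNA was measured on Affymetrix mouse arrays in 4 immunoprecipitates and the 4 matching unbound fractions. Both groups came from the same bacTRAP line, Hcrt JD218, a BAC transgenic line on a mixed Fvb and c57/bl6j background, in which a tagged ribosomal protein is made under Hcrt regulatory sequences so that ribosomes of those cells can be pulled down. Each sample pooled 5 mice of both sexes, aged 6 to 12 weeks, and the tissue was dissected diencephalon (thalamus and hypothalamus). All 8 samples carry the transgene, and a precipitate from mice without it was not analysed here. The unbound fraction is the RNA left after the pull-down, a stand-in for the whole tissue. Each sample started from 20 ng of RNA and went through repeated rounds of amplification.

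Hcrt averaged 15.36 ± 0.17 (SD, n = 4) on the log2 scale in the immunoprecipitates and 10.33 ± 0.55 (SD, n = 4) in the unbound fractions, 32.5-fold higher. Of 7 tested hypocretin neuron markers, 6 were called higher. Slc17a6 went the other way, with a log2 difference of -0.69 (limma adjusted p = 0.025), and was under 2-fold. The lists were chosen with earlier results of these data known, so such tallies are no independent check of the purification. Markers of other cells were called lower in 10 of 10 cases for astrocytes, 9 of 9 for oligodendrocytes, 7 of 7 for microglia, 4 of 4 for endothelial and mural cells, 2 of 3 for ependymal and choroid plexus cells, and 7 of 9 for other neuropeptide neurons. These tallies include markers, among those named below, that lay under 50 on every immunoprecipitate array. Such markers were tested through the unbound arrays alone, so a lower value had to appear for them. The summed linear signal of the astrocyte list ran from 6355 to 17444 in the immunoprecipitates against 39313 to 44517 in the unbound fractions (Sox9 lay under 50 on every immunoprecipitate array), and that of the oligodendrocyte list from 19063 to 42258 against 98217 to 114402. The microglial sum ran from 748 to 2500 against 6638 to 7649, with C1qa, C1qc, Cx3cr1 and P2ry12 under 50 on every immunoprecipitate array. The endothelial and mural sum ran from 122 to 448 against 775 to 1173, with Cldn5, Flt1, Pecam1, Slco1a4 and Cdh5 under 50 on those arrays. The other neuropeptide list ran from 2825 to 4297 against 13731 to 21322, with Trh under 50 there, and the ependymal and choroid plexus list from 1272 to 45155 against 386 to 61141, with Foxj1, Kl and Enkur under 50. That range came from Ttr, the transthyretin of choroid plexus, named after its values were seen. Ttr stood at 14.99, 15.45, 15.36 and 10.19 in the immunoprecipitates and 15.47, 15.85, 15.87 and 5.42 in the unbound fractions, so preparation 4 stood apart in both. The hypocretin list ran from 62024 to 81442 against 11932 to 18500. The differences in the other lists accompany every difference reported here, and their part in it was not tested. The Gapdh 3′ minus 5′ difference, a sign of RNA integrity, was highest in preparation 4 of both groups (4.50 and 3.36, against 1.94 to 2.31 on the other 6 arrays). Without preparation 4, 5 member genes were called higher and 11 lower, against 4 and 12 with it. Probe sets at 50 or more made up 33.6% to 34.8% of an immunoprecipitate array and 40.5% to 40.9% of an unbound array.

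Across the pathway, 4 of the 48 tested genes were called higher in the immunoprecipitate and 12 were called lower, while 32 passed neither rule. The 12 include Copz2, which was tested through the unbound arrays alone. A call needed a limma adjusted p under 0.05 and at least a 2-fold difference, with adjustment over all 17865 tested probe sets, and a gene was read from its tested probe set with the highest mean. Among all 10398 tested genes, 4.74% were called higher and 44.2% lower. The members' 25.0% lower lay below that background. Their 8.33% higher rests on 4 genes and is not read as a difference from it. When the probe sets of a gene were averaged, Srprb and Ssr4 were no longer called, and scaling on poly-A controls (below) left 0 members higher. The median log2 difference (immunoprecipitate minus unbound) was -0.27 for the members and -0.85 for all tested genes, and 36 of 48 members (75.0%) lay above the median gene. The arrays of the 2 groups did not overlap for 25 members (52.1%), against 57.1% of all genes. Of these 25, 8 were higher in the immunoprecipitate and 17 were lower, among 48 tested. Among all 10398 genes, 5938 did not overlap, of which 679 were higher (6.53% of all genes) and the rest lower. These shares were not tested against each other. With the preparation as a block the same 16 calls were made, 4 higher and 12 lower (4.98% and 44.8% of all genes). Some genes under 2-fold went one way in all 4 preparations and had smaller adjusted p in that limma fit. Among them were Spcs1 (0.0072), Sec31a (0.0087) and Tmed8 (0.010), which were lower, and Spcs2 (0.0050) and Srp9 (0.011), which were higher. In RNA from pooled tissue, fewer cells of a type and less RNA per cell cannot be told apart.

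The steps of the pathway differed in where their genes lay. The 21 genes that act at entry into the endoplasmic reticulum had a median log2 difference of 0.13, 2 of them were called higher and 1 lower, and 20 lay above the median of all genes. The 17 coat genes had a median of -0.80, 0 were called higher and 8 lower, and 9 lay above the median gene. Lower calls therefore made up 47.1% of the coat genes, close to the 44.2% of all genes. They include Copz2, which was tested through the unbound arrays alone. The p24 receptors, which travel between the compartments, held members at both ends, with 2 higher and 2 lower. No test of the difference between steps was made. Each count by step or list stands against the 4.74% higher and 44.2% lower of all genes. Counts under the other scalings stand against the shares of all genes given with those scalings.

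**Figure D1:**
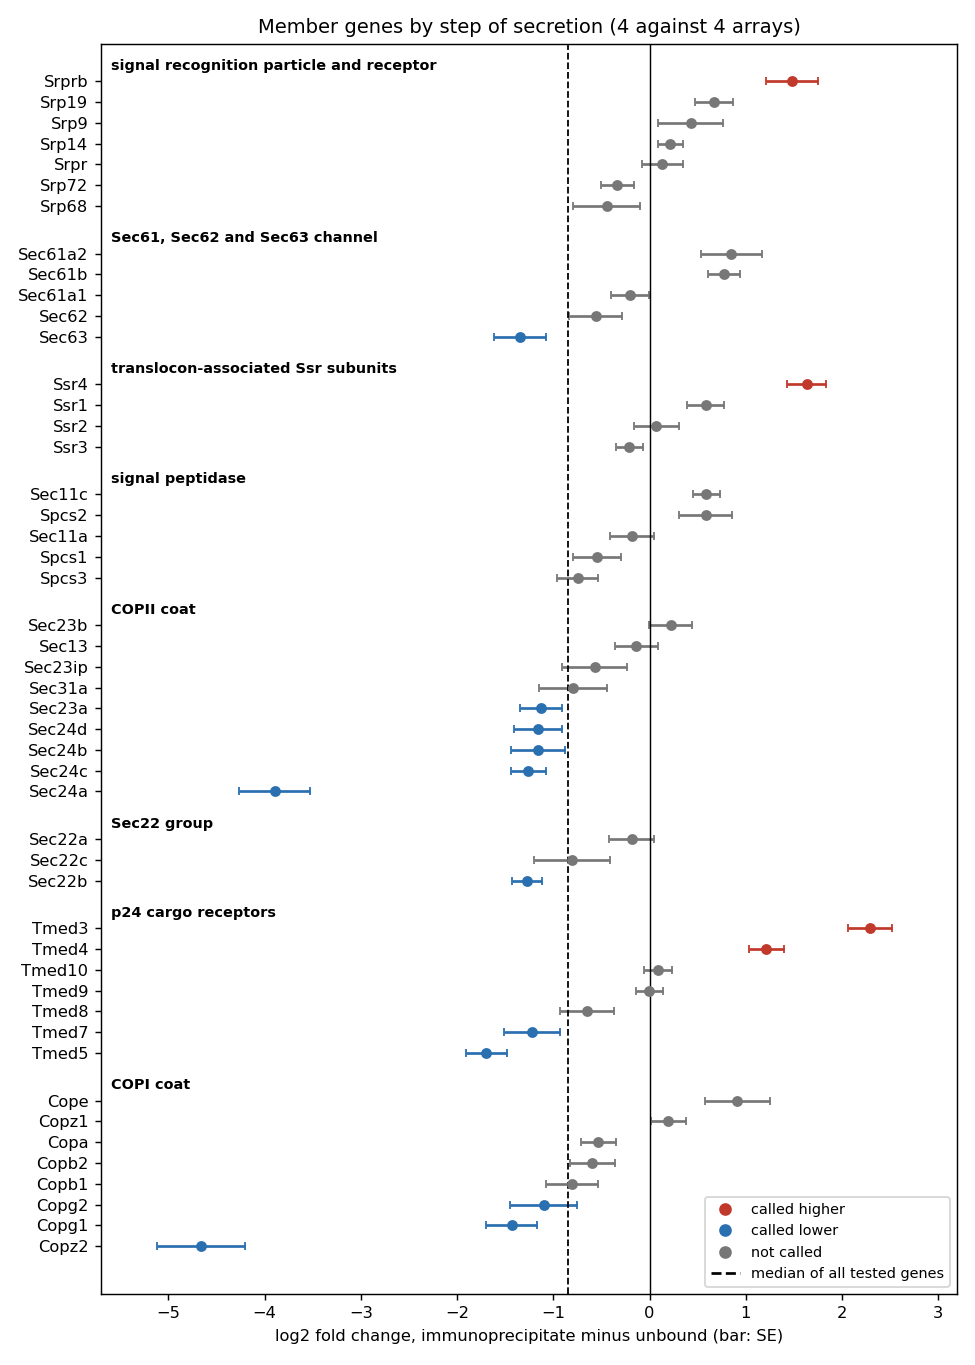
Log2 difference (immunoprecipitate minus unbound, x axis) of the 48 tested member genes, grouped by step, with bars for the standard error from 4 against 4 arrays. The dashed line is the median of all tested genes (-0.85); the 4 genes called higher are Srprb, Ssr4, Tmed3 and Tmed4, and the 2 farthest to the left, Sec24a and Copz2, are fitted against immunoprecipitate values mostly or wholly under the minimum of 50, so their positions are not measured sizes.

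How the groups are scaled to each other sets where 0 lies. The values above used hybridisation controls spiked in with biotin label, as the design text recommends. Centring both groups on the median raised every member by 0.92 on the log2 scale and gave 17 members higher (35.4%, against 20.4% of all genes) and 2 lower (4.17%, against 19.6%). Quantile normalization gave 10 higher (20.8%, against 16.5%) and 2 lower (4.17%, against 20.5%). Scaling on spiked poly-A controls moved every member down by 1.97 and gave 0 higher (against 0.673%) and 44 lower (91.7%, against 94.5%). The log2 mean of the poly-A controls varied widely between unbound arrays, from 7.17 to 10.55, and ran from 10.03 to 11.22 in the immunoprecipitates. That of the biotinylated controls ran from 10.43 to 11.43 and from 10.60 to 11.32. Of the 16 calls, 6 were kept under median centring and under quantile normalization, namely those of Srprb, Ssr4, Tmed3, Tmed4, Sec24a and Copz2. All 12 genes called lower stayed below 0 under each of these scalings, and Tmed3 was the one of the 4 higher genes to stay above 0 under poly-A scaling, at 0.33. Under each scaling the share of members called lower was below that of all genes, though under poly-A scaling the 2 shares were close (91.7% against 94.5%). The scalings use the same 8 arrays, so they do not repeat the comparison.

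**Figure D2:**
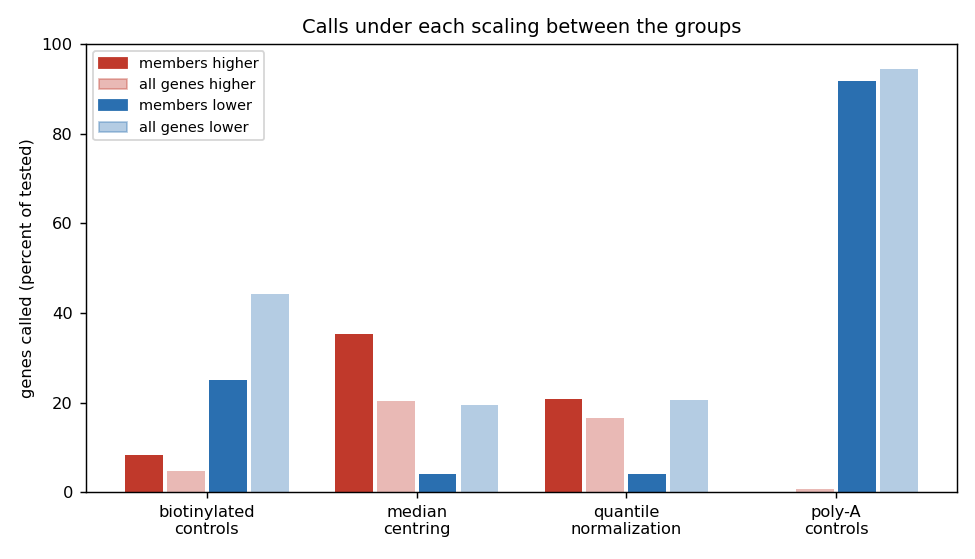
Percent of tested genes (y axis, from 0) called higher or lower in the immunoprecipitate under each scaling between the groups, for the 48 member genes (dark bars) and all 10398 tested genes (pale bars). Members called lower fall from 25.0% with the biotinylated controls to 4.17% with median centring and rise to 91.7% with poly-A controls. The pale bar for lower is the taller one each time, by little with poly-A controls.

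Promoter sequence was available for 42 of the 51 genes (44 promoters) in the RefSeq table for build GRCm38.p6, which holds 250 bases before to 50 after an annotated start. Of the 44, 30 lie at the outermost start of the gene and 14 at a start inside it, among them Sec24d, whose window lies 2695 bases inside. Secretory genes are often induced through the unfolded protein response, so each promoter was searched on both strands for its known elements. The core of the unfolded protein response element, TGACGTGG, was in 4 of 44 member promoters (9.09%) and in 0.676% of all 32851 promoters. Counted by gene it was in 4 of 42 members (9.52%) and in 1.13% of the 8480 tested genes with a promoter. All 4 are coat genes, shown here over 90 bases before to 30 after the start, 5′ to 3′ on the gene's strand, with the core (or its reverse complement) in capitals.
Sec23a (chr12:59011988-59012107, minus strand): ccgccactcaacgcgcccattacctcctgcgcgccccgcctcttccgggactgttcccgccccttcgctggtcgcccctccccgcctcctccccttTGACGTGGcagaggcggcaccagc
Sec24d (chr3:123267406-123267525, plus strand): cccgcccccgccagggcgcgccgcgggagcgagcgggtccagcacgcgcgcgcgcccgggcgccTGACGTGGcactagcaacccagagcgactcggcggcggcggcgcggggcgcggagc
Copb1 (chr7:114254651-114254770, minus strand): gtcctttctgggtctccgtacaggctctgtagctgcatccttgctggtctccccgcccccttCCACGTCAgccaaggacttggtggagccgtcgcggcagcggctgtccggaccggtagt
Copb2 (chr9:98563641-98563760, plus strand): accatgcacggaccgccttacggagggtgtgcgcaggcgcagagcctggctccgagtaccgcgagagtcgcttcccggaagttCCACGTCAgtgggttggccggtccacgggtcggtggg

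The core began 6 bases after the start in Sec23a, and at -26, -28 and -7 relative to it in Sec24d, Copb1 and Copb2. Sec23a and Sec24d were called lower in the immunoprecipitate and Copb1 and Copb2 were not called. Among members with a promoter, 2 of 11 called lower, 2 of 26 not called and 0 of 4 called higher held the core. Counts this small do not tie the core to a direction. The promoters of the 4 genes called higher are shown over the same window for comparison.
Tmed3 (chr9:89705014-89705133, minus strand): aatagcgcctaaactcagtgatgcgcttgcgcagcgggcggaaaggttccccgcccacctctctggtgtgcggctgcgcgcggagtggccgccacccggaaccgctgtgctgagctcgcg
Ssr4 (chrX:73786933-73787052, plus strand): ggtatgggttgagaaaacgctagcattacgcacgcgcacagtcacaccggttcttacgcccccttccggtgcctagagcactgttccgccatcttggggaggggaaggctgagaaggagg
Srprb (chr9:103202036-103202155, minus strand): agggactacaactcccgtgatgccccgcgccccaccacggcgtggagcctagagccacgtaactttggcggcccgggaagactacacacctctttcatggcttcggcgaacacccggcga
Tmed4 (chr11:6274808-6274927, minus strand): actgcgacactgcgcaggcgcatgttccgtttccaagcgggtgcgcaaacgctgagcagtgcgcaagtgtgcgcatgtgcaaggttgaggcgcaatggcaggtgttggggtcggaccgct

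The shorter motif CCACG, which the reverse complement of the core also contains, was in 30 of 42 member genes (71.4%), against 53.3% of tested genes and 35.5% of all genes in the table. The full endoplasmic reticulum stress elements ERSE and ERSE-II, which end in this motif on 1 strand, were in 0 of 42 and in 0.137% and 0.0444% of all genes. The cAMP response core TGACGTCA was in 1 of 42, Cope (2.38%, against 2.03% of all genes). A match is a run of letters in this window and was not tied to binding.

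The signal recognition particle and its receptor had 1 gene called higher and 0 called lower among 7, with a median log2 difference of 0.22, and all 7 lay above the median of all genes. Srprb, the receptor subunit anchored in the membrane of the endoplasmic reticulum, stood at 9.46, 10.15, 10.37 and 10.07 on the log2 scale in immunoprecipitates 1 to 4 and at 8.45, 8.31, 8.33 and 9.05 in the unbound fractions. The groups did not overlap, and Srprb was 2.78-fold higher (log2 difference 1.48 ± 0.27 SE, limma adjusted p = 0.00089). Its partner Srpr, the subunit that binds the particle, differed by 0.13 and overlapped between the groups. Srp14, which with Srp9 forms the domain that slows elongation, had the highest mean of the step, at 14.44, 14.34, 14.35 and 14.61 against 14.23, 14.40, 14.27 and 13.97. Its groups overlapped (0.22 ± 0.13, adjusted p = 0.16). Srp9 differed by 0.43 and Srp19, which helps to assemble the particle's RNA, by 0.67 (adjusted p = 0.012, under 2-fold). Srp68 and Srp72, which form a heterodimer in the particle, lay at -0.45 and -0.34. Under median centring 5 of the 7 genes were called higher and 0 lower, under quantile normalization 2 and 0, and under poly-A scaling 0 and 6.

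The channel genes gave 0 higher and 1 lower call among 5, with a median of -0.20. Sec63, whose J domain recruits the chaperone BiP to the channel, had a log2 difference of -1.35 ± 0.27 (SE), or 2.55-fold lower (adjusted p = 0.0015). It stood at 8.15, 8.24, 8.30 and 7.58 in the immunoprecipitates and 9.35, 9.57, 9.81 and 8.93 in the unbound fractions, with no overlap. Sec62, which acts with it on chains delivered after translation, differed by -0.56 (adjusted p = 0.096). The other tested Sec62 probe sets lay at -0.94 (adjusted p = 0.0023) and -0.69 (adjusted p = 0.0024), each without overlap and under 2-fold. Sec61b, the small beta subunit with the highest mean of the step, stood at 12.72, 12.80, 12.76 and 12.65 against 11.89, 12.18, 12.20 and 11.59. Its groups did not overlap and it differed by 0.77 ± 0.17 (adjusted p = 0.0025), short of 2-fold. Of the alternative pore-forming alpha subunits, Sec61a1 lay at -0.20 and Sec61a2 at 0.85 (adjusted p = 0.038). Sec61a2 was called higher when preparation 1 (1.16), preparation 4 (1.07) or immunoprecipitate 1 (1.04) was left out. Median centring and quantile normalization each gave 2 channel genes higher and 0 lower, and poly-A scaling gave 5 lower.

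The Ssr subunits sit beside the channel and aid the entry of some signal sequences. Of 4 genes, 1 was called higher and 0 lower, with a median of 0.33. Ssr4, the delta subunit and the one with the highest mean, stood at 12.48, 13.01, 13.16 and 12.93 in the immunoprecipitates and at 10.95, 11.51, 11.51 and 11.08 in the unbound fractions. Every immunoprecipitate value lay above every unbound value, a log2 difference of 1.63 ± 0.20 (adjusted p = 9.7e-05). Ssr1, the alpha subunit, stood at 11.60, 11.73, 11.85 and 12.30 against 11.21, 11.19, 11.22 and 11.53. That is 0.58 ± 0.19 (adjusted p = 0.022) without overlap but under 2-fold. Ssr2 and Ssr3 lay at 0.07 and -0.21. Median centring and quantile normalization each called 2 of the 4 higher, and poly-A scaling called 3 lower.

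Signal peptidase had no gene called in either direction among 5 (median -0.18), and all 5 lay above the median gene. The catalytic subunits were Sec11a at -0.18 and Sec11c at 0.59 ± 0.14 (adjusted p = 0.0046, under 2-fold, groups not overlapping). Among the accessory subunits, Spcs2 lay at 0.58 (adjusted p = 0.089) and Spcs3 at -0.74 (adjusted p = 0.011). Spcs1 had the highest mean of the step, at 13.55, 13.31, 13.39 and 14.02 against 14.32, 14.06, 13.43 and 14.63, and its groups overlapped (-0.55 ± 0.25, adjusted p = 0.085). Within preparations it was lower in all 4 (adjusted p = 0.0072 with the preparation as a block). Its second probe set, at 12.92, 12.79, 12.90 and 13.40 against 12.08, 12.33, 11.85 and 12.73, lay the other way without overlap and under 2-fold (0.75 ± 0.22, adjusted p = 0.011). Median centring called 2 of the 5 higher, quantile normalization 0, and poly-A scaling all 5 lower.

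In the COPII coat 5 of 9 genes were called lower (55.6%, against 44.2% of all genes) and 0 higher (against 4.74%), with a median of -1.13. The count of lower calls was 1 under median centring and 1 under quantile normalization, and 9 under poly-A scaling. The 4 Sec24 paralogs, which select cargo for the vesicle, were all called lower. Sec24a stood at 6.06, 4.43, 4.73 and 4.45 in the immunoprecipitates and 9.01, 9.02, 8.61 and 8.61 in the unbound fractions. Only immunoprecipitate 1 reached the minimum of 50, so the difference is given as at least 8.41-fold lower (adjusted p = 2.2e-05). Sec24c stood at 9.97, 9.94, 10.20 and 10.05 against 11.26, 11.27, 11.07 and 11.60 (-1.26 ± 0.18, adjusted p = 0.00022). Sec24b stood at 6.48, 6.98, 6.91 and 6.83 against 7.39, 7.86, 8.42 and 8.17 (-1.16 ± 0.28, adjusted p = 0.0045). Neither gene overlapped between the groups, nor did Sec24d (-1.16 ± 0.25, adjusted p = 0.0024). By log2 difference Sec24b, Sec24c and Sec24d were at the 40.0, 36.8 and 40.1 percentiles of all tested genes.

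Sec23a and Sec23b are alternative forms of the inner-coat subunit that binds Sec24 and activates the GTPase Sar1. Sec23a, with the highest mean of the coat, stood at 11.24, 10.44, 10.42 and 10.74 against 12.06, 11.69, 11.67 and 11.94 and was called lower (-1.13 ± 0.22, adjusted p = 0.0012). Sec23b stood at 9.20, 9.93, 9.87 and 9.72 against 9.36, 9.40, 9.65 and 9.43, with overlapping groups (0.22 ± 0.22, adjusted p = 0.41). The difference between these paralogs was not tested. In the outer cage, Sec13 lay at -0.14 and Sec31a at -0.79 (adjusted p = 0.074), and Sec31a passed the call when unbound array 1 was left out (-1.04, adjusted p = 0.027). Sec23ip, a partner of Sec23, lay at -0.57.

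Sec22b, a SNARE of vesicles moving between the endoplasmic reticulum and the Golgi, stood at 10.72, 10.56, 10.44 and 10.67 in the immunoprecipitates and 11.76, 11.80, 11.95 and 11.98 in the unbound fractions. The groups did not overlap and Sec22b was 2.42-fold lower (-1.27 ± 0.16, adjusted p = 8.8e-05). Its relatives were not called. Sec22a stood at 7.96, 8.01, 8.33 and 8.52 against 8.20, 8.25, 8.52 and 8.60 (-0.19 ± 0.23, adjusted p = 0.50), and Sec22c at 8.42, 7.93, 8.83 and 9.43 against 9.12, 9.65, 8.81 and 10.27 (-0.81 ± 0.39, adjusted p = 0.097). Sec22c passed the call when immunoprecipitate 4 was left out (-1.07, adjusted p = 0.035), while its second probe set lay at 0.63 ± 0.29 and was not called (adjusted p = 0.078). Under median centring and quantile normalization none of the 3 was called, and under poly-A scaling all 3 were lower. The difference between the relatives was not tested.

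The p24 receptors held calls in both directions: of 7 tested genes, 2 were called higher, 2 lower and 3 neither, with a median of -0.00. Tmed3, a gamma-subfamily member, stood at 11.98, 12.30, 12.62 and 12.93 in the immunoprecipitates and 9.82, 10.34, 10.28 and 10.23 in the unbound fractions. It was the member with the largest higher call, 4.89-fold (2.29 ± 0.23, adjusted p = 3.0e-05), at the 99.0 percentile of all tested genes. Tmed4, of the alpha subfamily, stood at 12.34, 12.94, 12.90 and 12.72 against 11.23, 11.66, 11.64 and 11.51, 2.32-fold higher (1.21 ± 0.18, adjusted p = 0.00028). In neither gene did the groups overlap.

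Of the other gamma-subfamily genes chosen here, Tmed5 and Tmed7 were called lower and Tmed6 was not tested, and their difference from Tmed3 was not tested. Tmed5 stood at 9.03, 8.68, 8.95 and 8.56 against 10.73, 10.58, 10.52 and 10.17, or 3.24-fold lower (-1.70 ± 0.21, adjusted p = 9.9e-05). Tmed7 stood at 11.31, 10.34, 10.59 and 10.14 against 12.31, 11.94, 11.34 and 11.67 (-1.22 ± 0.29, adjusted p = 0.0043), with immunoprecipitate 1 just under the lowest unbound array. Tmed9, the alpha-subfamily gene with the highest mean of the family, stood at 13.46, 13.26, 13.31 and 13.29 against 13.61, 13.12, 13.29 and 13.31 and did not pass the test (-0.00 ± 0.14, adjusted p = 0.99). Tmed10, the delta-subfamily member, lay at 0.09, and Tmed8 at -0.65 (adjusted p = 0.065). Median centring called 3 of the 7 higher and 0 lower, quantile normalization 2 and 0, and poly-A scaling 0 and 5.

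**Figure D3:**
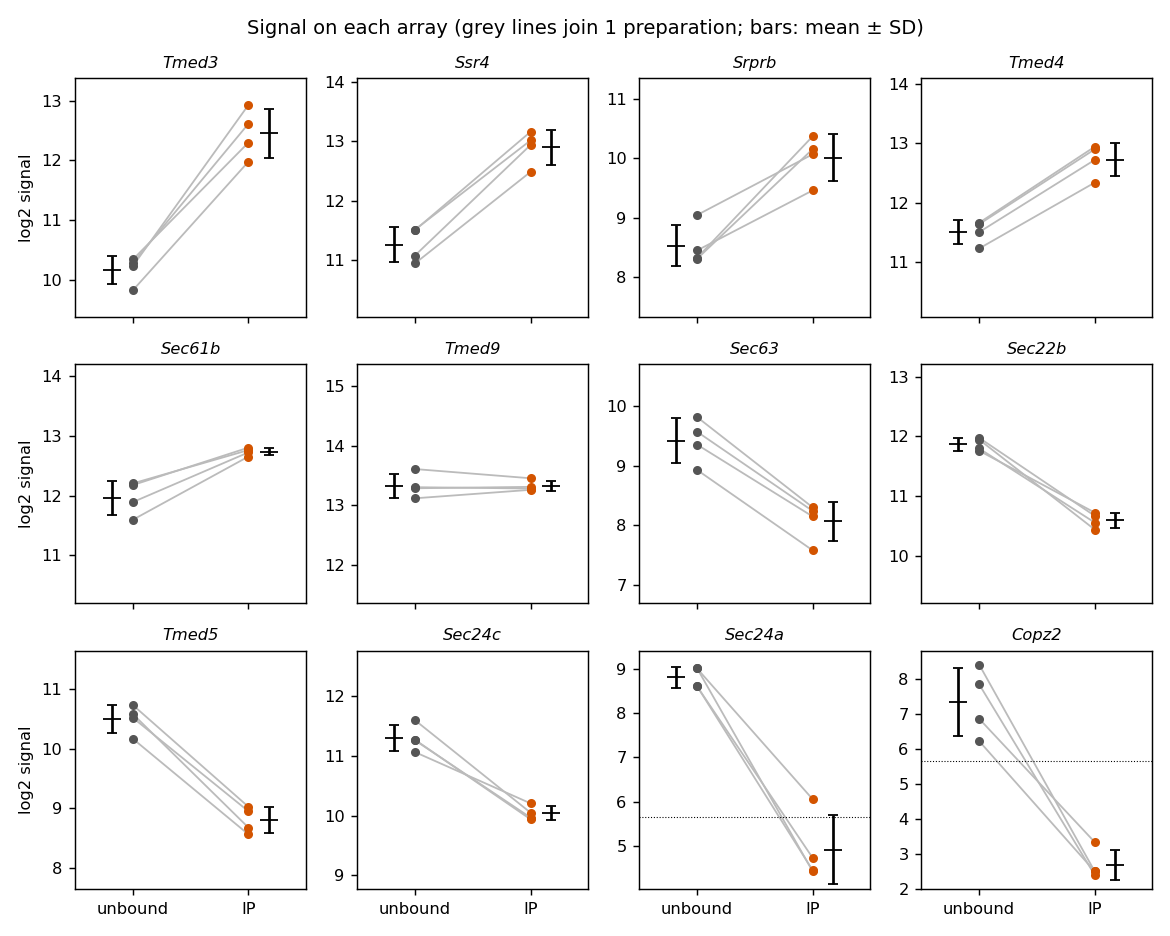
Log2 signal (y axis) of selected member genes on each of the 8 arrays, with grey lines joining the 2 fractions of a preparation and bars for the mean ± SD of 4 arrays; each panel has its own axis range and the dotted line marks the minimum of 50. Tmed3, Ssr4, Srprb, Tmed4 and Sec61b are higher in the immunoprecipitate without overlap, Tmed9 overlaps, and the remaining genes are lower without overlap.

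The COPI coat had 0 genes called higher (against 4.74% of all genes) and 3 lower among 8 (37.5%, against 44.2%), with a median of -0.70. Under median centring 2 were called higher and 1 lower, under quantile normalization 1 and 1, and under poly-A scaling 0 and 8. The zeta subunit exists in alternative forms. Copz2 stood at 3.33, 2.39, 2.50 and 2.50 in the immunoprecipitates, under the minimum on all 4, and at 6.87, 7.85, 8.42 and 6.23 in the unbound fractions. It was at least 3.27-fold lower (adjusted p = 2.4e-05), but it reached the minimum through the unbound arrays alone, so a difference had to appear. Copz1 stood at 11.48, 11.98, 11.91 and 12.26 against 11.72, 11.67, 11.59 and 11.84, with overlapping groups (0.20 ± 0.19, adjusted p = 0.38). The difference between these forms was not tested.

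The gamma subunits were both called lower. Copg1 stood at 9.32, 10.52, 9.96 and 9.62 against 11.24, 11.42, 11.01 and 11.48 (-1.43 ± 0.27, adjusted p = 0.00098). Copg2 stood at 8.93, 9.22, 8.72 and 9.67 against 10.42, 9.69, 9.74 and 11.09 (-1.10 ± 0.35, adjusted p = 0.018). Its call was lost without immunoprecipitate 3 (-0.96), without unbound array 4 (-0.81), without preparation 1 (-0.97) and without preparation 4 (-0.99). Cope, the epsilon subunit with the highest mean of the coat, stood at 11.84, 12.85, 12.87 and 12.21 against 11.01, 12.06, 12.07 and 10.98 and was not called (0.91 ± 0.33, adjusted p = 0.035). It was called higher without immunoprecipitate 1 (1.12), unbound array 2 (1.09) or unbound array 3 (1.09). Copa and Copb2, which form the outer layer of the coat with Cope, lay at -0.53 and -0.59, and Copb1 of the inner layer at -0.80, each with an adjusted p under 0.05 and under 2-fold.

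Several tested probe sets read 21 of the member genes, and they gave the same call for 11. By probe set, 9 of 81 were called higher (background 4.88%), 17 lower (background 45.1%) and 55 neither. Differences of both signs came from 6 genes (Srprb, Sec61a2, Ssr1, Ssr4, Spcs1 and Sec22c), and calls in both directions from Ssr4 and Ssr1. The second Ssr4 probe set was called lower (adjusted p = 0.037) and reached 50 on 1 immunoprecipitate and 3 unbound arrays. With values under 50 raised to it the fold was 1.76, which is not a bound. Of the other Ssr1 probe sets, 1 was called higher (at least 1.99-fold, adjusted p = 0.0050), 1 was called lower (at least 2.00-fold, adjusted p = 0.00012) and 1 was not called. The Ssr1 probe set called lower reached 50 on the unbound arrays alone, so a difference had to appear. Genes read as not called by their brightest probe set could still have a called one: Srp14 had others at 1.02 and 1.34, both called higher, and Spcs2 one at 1.09, also called higher (adjusted p = 0.00045). Srprb had a second probe set called higher, at least 1.88-fold (adjusted p = 0.016), and another that was not called (-0.26). When the probe sets of each gene were averaged, Copg1, Sec22b, Srprb, Ssr4 and Tmed7 were no longer called. Of 5 Sec63 probe sets, the 4 that reached 50 on all arrays lay between -0.41 and -1.73, and 2 of them were called lower. The other Sec63 probe set reached 50 on 2 immunoprecipitate and 3 unbound arrays and was not called (adjusted p = 0.050). With values under 50 raised to it, it was 1.71-fold lower, which is not a bound. Probe sets named _s_at or _x_at, whose probes can match other transcripts, made up 9 of the 81, among them the Ssr4 and Tmed7 probe sets used above. Where the probe sets lie on the transcripts was not examined.

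**Figure D4:**
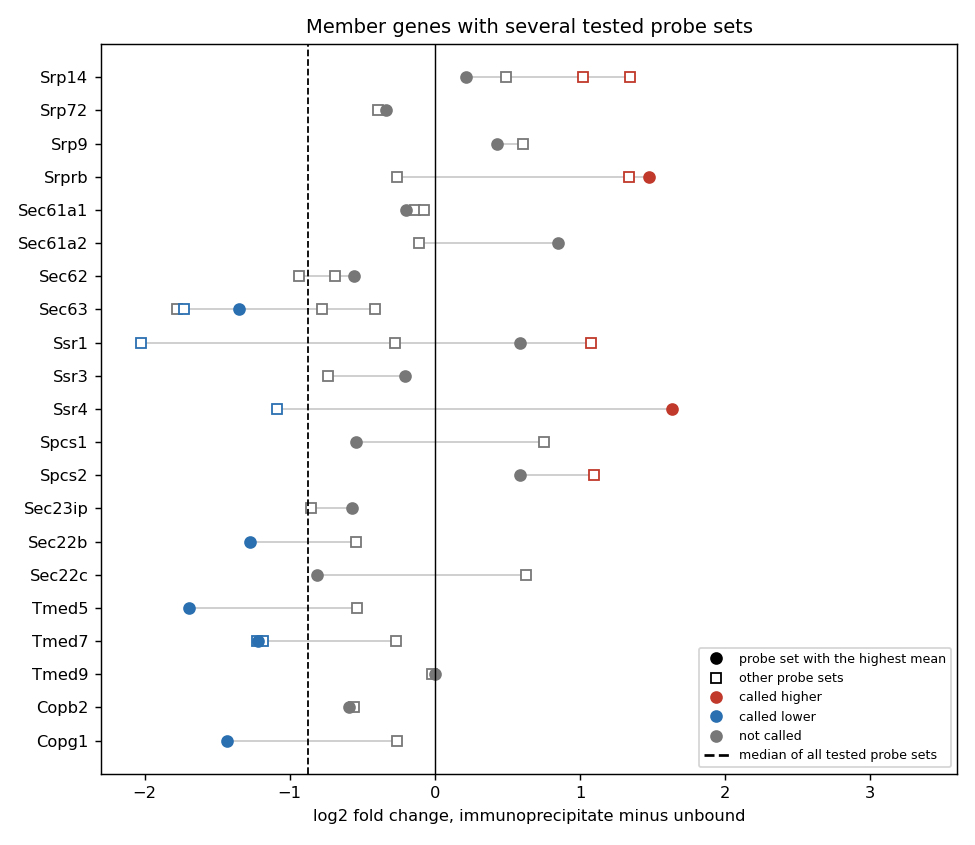
Log2 difference (x axis) of every tested probe set for the 21 member genes that have several, with filled circles for the probe set that represents the gene and open squares for the others. Red and blue mark probe sets called higher and lower, and both colours occur in Ssr1 and Ssr4.

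Longer genes tended to have lower log2 differences, among the members and among all tested genes. Over the 48 members, the log2 difference and genomic length had a Spearman rho of -0.49 (Pearson r with log10 length -0.40), and over 10361 tested genes with a length rho was -0.36 (r -0.33). These are descriptions across genes, which share the same 8 arrays and are not independent. Tested genes were split by length into 5 bins of about equal size. The 9 members in the shortest bin, up to 8540 bases, had a median of 0.43, with 3 called higher and 0 lower, against -0.13 for all genes of that bin. The next bins, up to 18598, 35676 and 81035 bases, held 12, 16 and 9 members with medians of -0.17, -0.39 and -0.80, against -0.52, -0.81 and -1.15 for all genes. The longest bin held 2 members, both called lower, with a median of -1.13 against -1.54 for all genes. The share of all genes called in each bin was not examined, so the calls by bin are not read as a result about the members. Tmed3, Ssr4 and Tmed4 span 5841, 3806 and 4124 bases, and Sec24d and Copg2 span 100841 and 149262 bases. Entry genes had a median length of 14033 bases and coat genes 39122 bases. Length and the coat genes' lower values moved together, and the part of length in them was not tested.

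**Figure D5:**
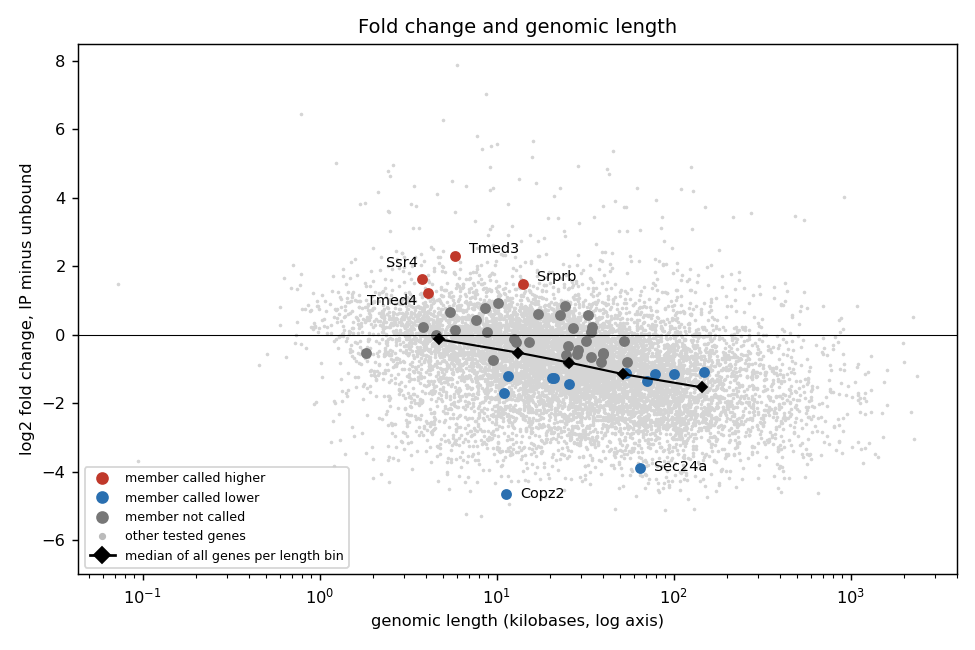
Log2 difference (y axis) against genomic length (x axis, kilobases on a log axis) for member genes (large points, coloured by call) and all other tested genes (small grey points), with black diamonds for the median of all genes in each length bin. The medians fall from -0.13 to -1.54, and Tmed3, Ssr4 and Tmed4 lie at the short end above them.

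Other genes of these steps, taken as lists, were read the same way. Among 8 tested partners of the translocon, 2 were called higher and 1 lower, with a median of 0.06. Sil1, the exchange factor of BiP, was 3.02-fold higher (adjusted p = 0.0017) and Bcap29, an export receptor of the endoplasmic reticulum, 2.85-fold higher (adjusted p = 2.3e-05). Dnajc1, another J-domain protein of that membrane, was at least 2.35-fold lower (adjusted p = 9.7e-05). It reached the minimum through the unbound arrays alone, so a difference had to appear. The oligosaccharyltransferase, which adds N-glycans as chains emerge from the channel, had 3 of 11 genes higher and 2 lower (median 0.60). Its higher genes included Ostc (1.71 ± 0.20, adjusted p = 6.7e-05) and Ddost (1.54 ± 0.33, adjusted p = 0.0024), and the largest lower call was Magt1 (-2.01 ± 0.39, adjusted p = 0.0013). None of 12 genes for tail-anchor insertion was called (median -0.28).

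Of 26 tested genes for COPII assembly and export, 2 were called higher and 3 lower (4.74% and 44.2% of all genes were), with a median of 0.01. The higher genes, named after their values were seen, were Ergic3 (2.35-fold, adjusted p = 0.0045) and Preb (2.17-fold, adjusted p = 0.020), whose groups overlapped. Sec16a, the scaffold of exit sites, was 5.17-fold lower (adjusted p = 3.5e-05) and Mia3, which helps to load large cargo, 4.20-fold lower (adjusted p = 3.3e-05). Ergic2, a cycling receptor of the intermediate compartment, was 2.43-fold lower (adjusted p = 0.00068). For COPI assembly and retrieval, 0 of 19 were higher and 2 lower (median -0.19), namely Tmf1 (4.70-fold, adjusted p = 0.00012) and Golga2 (2.11-fold, adjusted p = 0.0032), both Golgi proteins. Under median centring the 5 lists gave 4, 7, 5, 12 and 5 genes higher and 0, 1, 0, 2 and 1 lower, in the order given here. Quantile normalization gave 3, 4, 2, 10 and 5 higher and 0, 1, 0, 2 and 1 lower, and poly-A scaling 0 higher and 6, 8, 12, 24 and 18 lower. No test between these lists and the members was made.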

How the data were processed

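The authors deposited 1 log2 value per probe set and array for 45101 probe sets. Per the submitters' processing notes the values were made with GCRMA, whose version was not given in the sources used here, and per the series' design text each group was normalized separately. Control probe sets (64) were left out. A constant was taken from each group to give 18 biotinylated controls equal means (they differed by 0.02 as deposited). Probe sets with a linear value of 50 or more on no fewer than 4 arrays were fitted together in limma 3.58.1 (R 4.3.3; lmFit, eBayes with trend) with Benjamini-Hochberg adjustment, and the procedure was tested on simulated data. Where a group lay under 50 on some or all arrays, values under 50 were raised to it. The fold is then a lower bound if the higher group reached 50 on all 4 arrays. Having 4 arrays a group limits the precision.

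Symbols were those of the platform annotation, lengths and promoters from RefSeq. Per-array values are given for the called genes with the largest changes of each step whose groups do not overlap (up to 3), the gene with the highest mean of the step, paralogs with differing calls and genes whose probe sets are called both ways; of other lists, up to 3 called genes are named. Tmed4, Sec24d and the genes named by their difference alone are added to account for every member. The members and lists were chosen with earlier results of these data known. Replicate numbers join the fractions of 1 preparation per the labels, and same-numbered arrays deviated together (r 0.44, 0.33, 0.25 and 0.59). Unbound array 3 also gave r 0.26 with immunoprecipitate 2, and unbound array 2 gave r 0.24 with immunoprecipitate 3. The pairing of preparations 2 and 3 therefore rests on the labels. Alternatives were other scalings, filters, thresholds, averaged probe sets per gene, no variance trend, the replicate block, and leaving out each array; leaving out both arrays of preparation 1 or 4 was chosen after seeing the data.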

Additional observations from a re-analysis of the deposited data

Results flagged for a closer look

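In 5 of 96 groups of 4 arrays examined (48 genes in 2 fractions), 1 array stood apart from the other 3 by Dixon's criterion, and chance gives about 1 in 20. Copz2 stood at 3.33 on the log2 scale in immunoprecipitate 1, against 2.39 to 2.50 on the other immunoprecipitate arrays, all under the minimum of 50. Preparation 4 gave the other 4 member cases. Srp9 stood at 14.58 in immunoprecipitate 4, against 13.45 to 13.62. Spcs2 stood at 13.82 in immunoprecipitate 4, against 13.12 or less on the others. Ssr1 stood at 11.53 in unbound array 4, against 11.19 to 11.22. Sec11c stood at 12.93 in unbound array 4, against 13.36 to 13.38. The choroid plexus marker Ttr, examined after its values were seen, stood at 10.19 in immunoprecipitate 4, against 14.99 to 15.45, and at 5.42 in unbound array 4, against 15.47 to 15.87. Preparation 4 also had the highest Gapdh 3′ minus 5′ difference in both groups, and its part in these values was not tested.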

How the results depend on the processing

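The counts of member genes called higher and lower (4 and 12) became 17 and 2 under median centring, 10 and 2 under quantile normalization, 0 and 44 under poly-A controls, 10 and 16 with no fold threshold, 1 and 2 at 4-fold, and 2 and 9 when probe sets of a gene were averaged. The counts of probe sets (9 and 17) became 26 and 3, 18 and 2, 0 and 72, 18 and 25, and 1 and 3 under the first 5 of these settings. Averaging probe sets ended the calls of Copg1, Sec22b, Srprb, Ssr4 and Tmed7, and a minimum of 100 left Copz2 untested. Leaving out 1 array gave 4 to 6 genes higher and 11 to 13 lower, and 8 to 10 probe sets higher and 14 to 19 lower. With the replicate block 4 genes were called higher and 12 lower, 9 probe sets higher and 18 lower, and all 16 calls were the same. With no shift, no filter or no variance trend all 16 calls were kept too.

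Of the 48 members, 17 turned sign under poly-A controls, 18 under median centring and 14 under quantile normalization. Among the 26 genes followed through every setting (those given by array, and Sec24d), signs turned under poly-A controls for Cope (-1.05), Copz1 (-1.77), Sec23b (-1.75), Sec61b (-1.19), Srp14 (-1.75), Srprb (-0.49), Ssr1 (-1.38), Ssr4 (-0.33) and Tmed4 (-0.75); under median centring for Sec22a (0.74), Sec22c (0.11), Spcs1 (0.38) and Tmed9 (0.92); under quantile normalization for Sec22a (0.78), Sec22c (0.043) and Tmed9 (0.20); with averaged probe sets for Spcs1 (0.10) and Ssr1 (-0.16); and with no shift for Tmed9 (0.020). Tmed9 ranged from -0.073 to 0.091 when arrays were left out. Median centring and poly-A scaling move every gene by the shift given above; for the other settings the cause was not tested. Signal near the minimum of 50 limits Sec24a and Copz2, whose folds are bounds, and 26 of the 108 probe sets lay under 50 on every array.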
